A study of Drosophila melanogaster with 3 samples.

Results

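The genes dpn, h, Hey, cwo and Sidpn encode the Hes and Hey proteins of the fly outside the E(spl) complex, and binding around these 5 of 13945 protein-coding genes was examined in embryos that carry a tagged Dpn protein. Of the names, 4 matched the annotation by symbol and h matched as a synonym of hry. For each gene, all entries of the deposited peak lists were collected whose summit, the position of highest signal in a region, lay in the gene body or within 10 kb of it. The lists hold no expression values, so the results below describe where tagged Dpn was recovered and not the activity of any gene.

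The assay was chromatin immunoprecipitation with sequencing (ChIP-seq), in which DNA bound by a protein is pulled down with an antibody and the recovered fragments are mapped. It was run on 3 biological replicates of 1 group: whole embryos of both sexes, 0 to 24 hours old, from the dpn-MiMIC-GFP strain, in which an added eGFP exon within a dpn intron makes a Dpn-GFP fusion from the gene itself. Sonication gave fragments of 200 to 800 bp. Per the labels the antibody was directed at GFP, whereas their antibody field reads dpn. Untagged embryos and control libraries were not analysed here, so no value below is set against another condition. All embryonic stages and tissues were mixed, and fewer cells with binding and less binding per cell cannot be told apart. The lists carry no read counts, so the depth of each replicate is unknown.

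Hes and Hey proteins are basic helix-loop-helix repressors. They bind DNA as dimers, at E-box and N-box sequences, and many Hes proteins recruit co-repressors such as Groucho through a short motif at the end of the protein. Dpn (Deadpan) keeps neural stem cells in their dividing state and also acts in the count of X chromosomes during sex determination. The protein of h (Hairy) is a pair-rule repressor that divides the early embryo into segments and later limits where sensory bristles form. Hey acts downstream of Notch, cwo (clockwork orange) represses targets of the circadian clock, and Sidpn, named for its similarity to Deadpan, is less well described. Some Hes genes are known to be repressed by Hes proteins themselves.

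The DNA under 5 of the peaks described below is shown first, because these peaks differed in whether they held a known site of these proteins. The stretches run 5′ to 3′ on the plus strand of genome release 6 and come from the RefSeq sequence. Capitals mark matches on either strand to the N-box CACNAG or to TATCGA, part of the element bound by the promoter factor DREF. The first pair, at cwo and h, held no such match. The other sequences, from peaks around Sidpn, held an N-box, an N-box with TATCGA, or a pair of TATCGA copies. The Sidpn peaks 815 and 5728 bp upstream of that gene held no such match within 50 bp and are not shown. The stretch by mib2 was kept to 30 bases, since the peak lies over a 5′ UTR.
cwo, intronic peak, chr3R:10393842-10393942: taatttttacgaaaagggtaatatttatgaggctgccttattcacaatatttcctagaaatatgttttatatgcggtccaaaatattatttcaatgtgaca
h, upstream peak, chr3L:8672621-8672721: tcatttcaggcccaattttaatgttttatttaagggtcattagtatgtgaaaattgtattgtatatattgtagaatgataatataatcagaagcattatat
Sidpn, peak by lncRNA:CR43700, chr2L:19024545-19024645: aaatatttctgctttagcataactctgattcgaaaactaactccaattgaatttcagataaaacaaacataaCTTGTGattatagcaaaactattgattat
Sidpn, peak by lncRNA:CR44184, chr2L:19019445-19019545: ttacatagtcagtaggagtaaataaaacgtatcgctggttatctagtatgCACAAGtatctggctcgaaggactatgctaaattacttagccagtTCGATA
Sidpn, peak by mib2, chr2L:19034611-19034640: taggtgtTATCGAtcacTATCGAatagatg

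Every one of the 5 genes had a peak on the authors' thresholded list. That list was thresholded on the irreproducible discovery rate (IDR), which scores how well ranks match between replicates, and its entries are called IDR peaks here. It held the 5164 strongest entries of the list pooled from all replicates, whatever the rank of each in the single replicates. Such a peak lay in or within 10 kb of 67.5% of all protein-coding genes, so presence of a peak nearby was the usual state. At a start site of the gene itself, within 1000 bp, a peak was present for 1 of the 5 genes, Sidpn, against 27.9% of all protein-coding genes. The 4 other genes had peaks nearby without one at their own start site, a state shared by 39.6% of all protein-coding genes. In all, 11 of the 5164 IDR peaks lay at the 5 genes: 1 at dpn, 1 at h, 3 at Hey, 1 at cwo and 5 at Sidpn. With the same number of entries taken from each replicate's own list, from the strongest down (its top entries), the 5 genes held 10, 8 and 10 entries in replicates 1, 2 and 3, a mean of 9.33 ± 1.15 (SD, n = 3). All 5 genes had such an entry nearby in each replicate, whereas an entry at an own start site was found at h and Sidpn in replicate 1 and at none of the 5 genes in replicates 2 and 3. Over all protein-coding genes the replicates gave 67.1% ± 0.208 with a top entry nearby and 27.5% ± 0.611 with one at a start site (SD, n = 3).

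**Figure D1:**
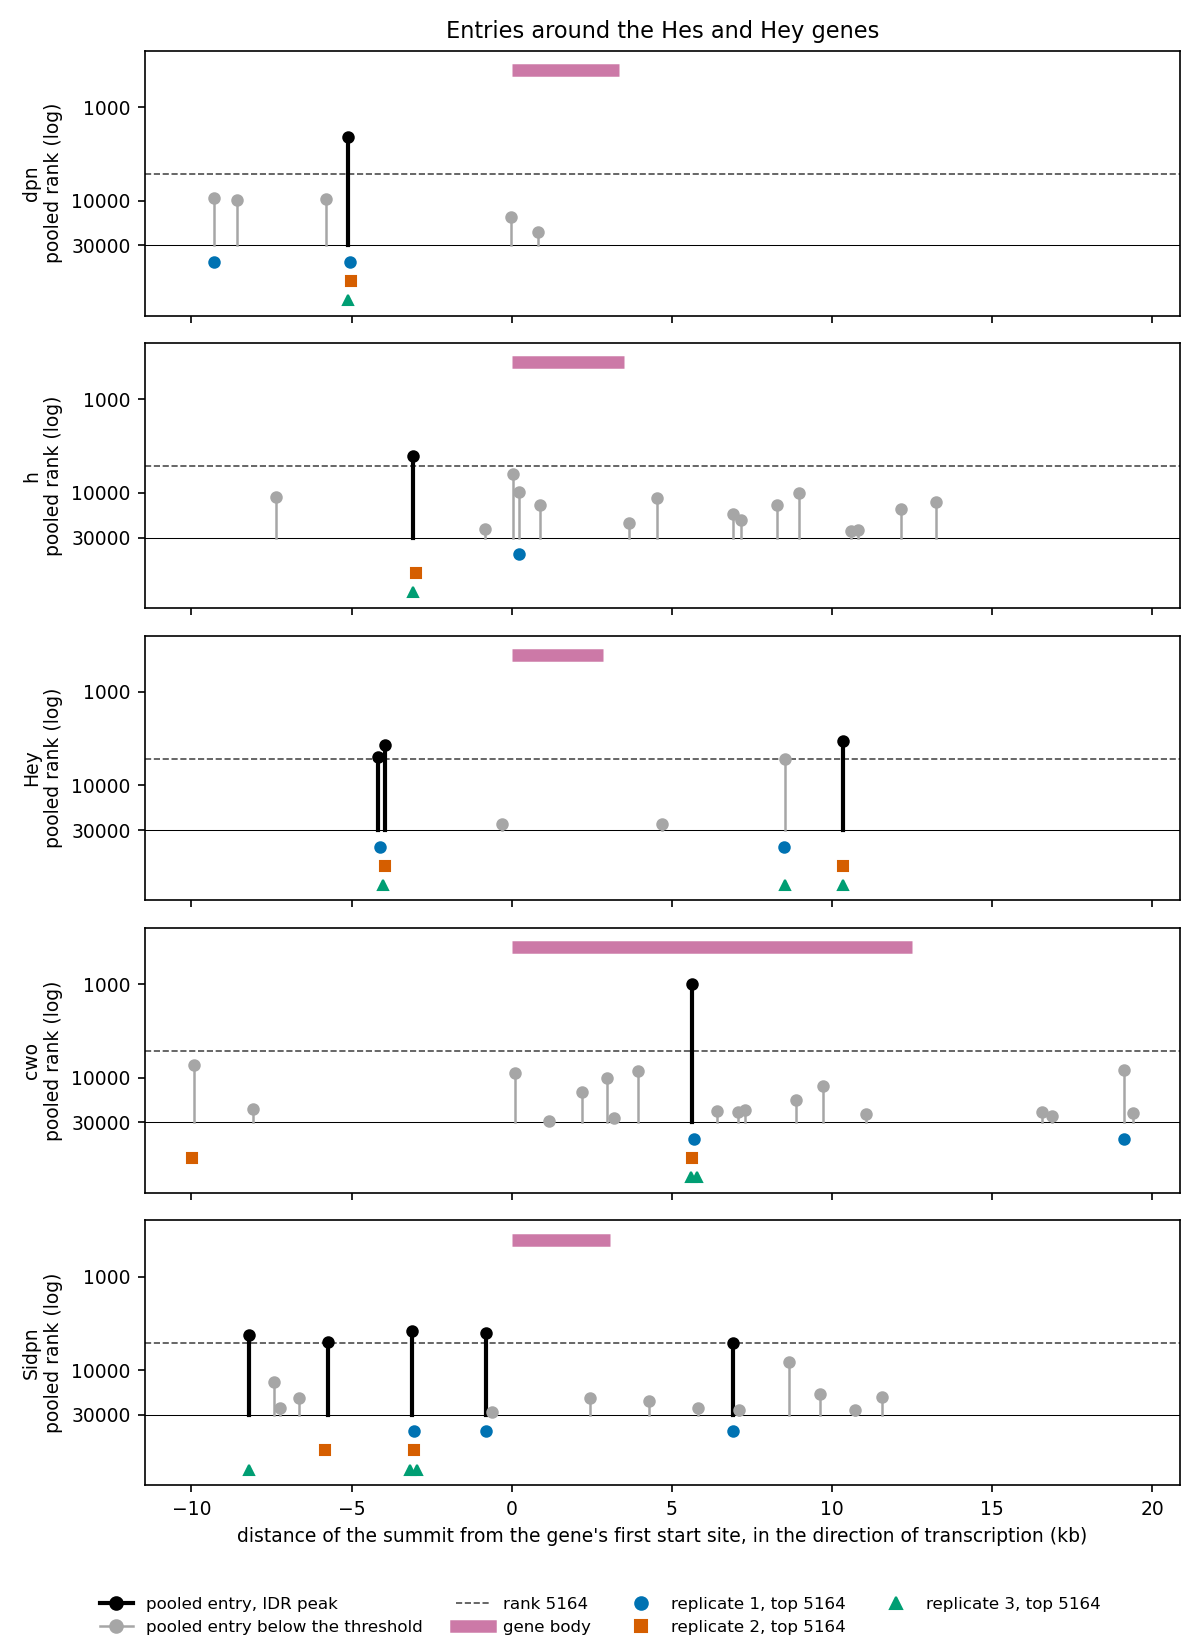
Summits of the pooled list around each gene, by distance from its first start site in the direction of transcription (kb) and by rank (log axis, strongest at the top), with the top 5164 entries of each replicate below. Black stems are IDR peaks and grey stems are entries below the threshold; only the peak of cwo lay inside its gene body, and the single peaks of dpn and h lay 5126 and 3088 bp upstream.

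The single IDR peak of dpn lay outside the gene. The gene (FBgn0010109) runs on the minus strand of chromosome 2R from 8228971 to 8232330, and the peak covered 8237248 to 8237663, with its summit 5126 bp upstream of the dpn start site. The nearest start site was that of pnut, which encodes a septin needed for cell division, with the summit 185 bp inside pnut. Ranked by the authors' signal value, where 1 is the strongest, the peak stood at 2098 in the IDR list and at 3065, 1806 and 1632 in replicates 1, 2 and 3, a mean of 2168 ± 782 (SD, n = 3). It was the strongest entry around dpn in every replicate, and the 3 replicate summits lay within 96 bp of one another.

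The start site of dpn itself had a much weaker entry. In the pooled list, made from all replicates together, its summit lay 32 bp upstream of the start at rank 14836, with a −log10 q-value of 0.565, against 4.05 for every IDR peak. In replicate 3 the entry there ranked 7994, in replicate 2 the strongest entry within 1000 bp ranked 21634, and replicate 1 had none. The pooled list held 6 entries around dpn, and the replicates held 8, 7 and 7, of which 2, 1 and 1 were among the top entries. Entries this low include background regions as well as peaks, so none of them is called a peak.

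Hey, which acts downstream of Notch, had 3 IDR peaks, and all of them lay nearer to start sites of other genes. Hey (FBgn0027788) is on the minus strand of chromosome 2R, 7995438 to 7998278. The strongest, from 7987727 to 7988142 at rank 3323, lay 10343 bp downstream of the Hey start site in an intron of ACC, which encodes the fatty acid enzyme acetyl-CoA carboxylase, and 527 bp upstream of the start site of Nup44A, a nuclear pore gene. It ranked 7189 in replicate 1, against 2684 and 2738 in replicates 2 and 3, so it was outside the top entries in replicate 1 only. The other peaks of Hey overlapped each other upstream of the gene, with summits 121 and 324 bp upstream of the start site of CG11191.

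Of this overlapping pair, the stronger covered 8002033 to 8002448 at rank 3699 and the weaker 8002236 to 8002651 at rank 5017. Replicate 1 listed 1 entry here, at rank 3915, to which both peaks were matched. Its summit, at 8002381, lay nearer to that of the weaker peak (8002444) than to that of the stronger (8002241). Replicate 2 listed an entry for each, at ranks 3458 and 6395. Replicate 3 also listed 2, at ranks 4172 and 8855, but both peaks were matched to the one at 4172, because the strongest entry within 150 bp was taken. The start site of Hey had the weakest entry among the 5 genes, 302 bp upstream at pooled rank 25652 with a −log10 q-value of 0.182. The strongest entries within 1000 bp of the Hey start in replicates 1, 2 and 3 ranked 19202, 21150 and 16074. They lay at different positions, 171 and 37 bp downstream in replicates 1 and 2 and 264 bp upstream in replicate 3.

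The gene h (FBgn0001168, chromosome 3L, 8675759 to 8679253, plus strand) had 1 IDR peak, in intergenic sequence from 8672463 to 8672878. Its summit lay 3088 bp upstream of the first of the 2 start sites of h, which was also the nearest start site of any gene. The peak ranked 3999 in the IDR list and 6390, 3211 and 3331 in replicates 1, 2 and 3, a mean of 4311 ± 1802 (SD, n = 3). Replicates 2 and 3 placed it among their top entries, and replicate 1 did not.

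In replicate 1 the strongest entry around h was instead at the gene's second start site, with its summit 38 bp downstream and rank 4869. The strongest entries within 1000 bp of a start site ranked 8676 and 7979 in replicates 2 and 3. They lay at other positions, 700 bp downstream in an intron and 42 bp downstream of the first start site. The pooled list held an entry at each start site, and these overlapped (8675592 to 8676007 and 8675791 to 8676206). The stronger ranked 6315, 41 bp downstream of the first start site, with a −log10 q-value of 2.99. It was matched at ranks 8726 and 7979 in replicates 2 and 3 and had no match within 150 bp in replicate 1. The entry at the second start site ranked 9853 and was matched in replicate 1 only. Both start sites, at 8675759 and 8675955, lay within the stronger entry. With entries this close, the matches depend on the 150 bp limit. After the upstream peak, the entry at rank 6315 was the strongest of the 16 pooled entries around h. Of those 16 entries, 13 were intergenic, a share of 81.2%, against 14.3% in the whole pooled list. The replicates gave shares of 68.8%, 69.2% and 70.6% for h, against 13.9%, 15.2% and 15.1% for their whole lists. The body of h takes up only 3495 of the 23495 bp searched, and no entry outside it lay in another gene. The make-up of the sequence searched and a trait of binding around h thus cannot be told apart in these shares.

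The strongest peak of the 5 genes was that of cwo (FBgn0259938), and it was also the only IDR peak inside one of their gene bodies. The gene covers 10388258 to 10400752 on the plus strand of chromosome 3R, and the peak covered 10393684 to 10394099 in an intron, 5634 bp downstream of the only start site. It ranked 985 in the IDR list and 601, 1495 and 1259 in replicates 1, 2 and 3, a mean of 1118 ± 463 (SD, n = 3). All 3 replicates placed it first among the entries around cwo. The next entry of the pooled list around this gene ranked 7358, so a wide gap separated the intronic peak from the rest.

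The start site of cwo had an entry 92 bp downstream at pooled rank 8817, with a −log10 q-value of 1.47, and at ranks 7211, 12609 and 15159 in the replicates. The pooled list held 19 entries around cwo, of which 13 lay in the gene body. By position 10 of the 19 were intronic, 52.6%, against 35.5% of the whole pooled list. This gene has the longest body of the 5, 12495 bp, whereas the others span between 2841 and 3495 bp.

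Sidpn (FBgn0032741, chromosome 2L, 19027710 to 19030780, plus strand) had the most peaks, 5, a number that 5.79% of all protein-coding genes reached or passed. The strongest, at rank 3806, covered 19024387 to 19024802, 3115 bp upstream of Sidpn and 155 bp upstream of lncRNA:CR43700. It ranked 4082, 4484 and 3760 in replicates 1, 2 and 3 and was the only one of the 5 found among the top entries of all 3. The peak at rank 3977, from 19026687 to 19027102, lay 815 bp upstream of Sidpn and was the only IDR peak within 1000 bp of an own start site of any of the 5 genes. It ranked 3146 in replicate 1 but 7294 and 6791 in replicates 2 and 3, so the peak at the start site was among the top entries of 1 replicate only.

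The remaining peaks of Sidpn lay at other genes. The peak at rank 4237 (19019287 to 19019702) lay over lncRNA:CR44184, 8215 bp upstream of Sidpn, with ranks 5670, 5230 and 2735. The peak at rank 4973 (19021774 to 19022189) lay 435 bp upstream of CG15172, with ranks 8243, 3579 and 5911. The peak at rank 5164 (19034404 to 19034819) was the last entry of the IDR list and lay 6902 bp downstream of the Sidpn start, 29 bp upstream of a start site of mib2, the gene of a ubiquitin ligase known for its part in muscle. Its ranks were 3405, 10661 and 6329, the widest spread of the 11 peaks. The entry of replicate 2, at rank 10661, lay nearest to a start site of another gene, CG31800, 17 bp away. Each replicate named a different strongest entry around Sidpn: 818 bp upstream at rank 3146 in replicate 1, 5822 bp upstream at rank 3579 in replicate 2 and 8214 bp upstream at rank 2735 in replicate 3.

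The 11 peaks were found in every replicate but varied in rank. All 11 had a summit within 150 bp among the 30000 entries of each replicate, as did 96.9% of all IDR peaks. Among the top entries of all 3 replicates, 4 of the 11 peaks were found (36.4%), against 66.9% of all IDR peaks. The 4 were those of dpn and cwo, the stronger upstream peak of Hey and the Sidpn peak by lncRNA:CR43700. Of the remaining 7, 3 were among the top entries of 2 replicates, the weaker upstream peak of Hey through entries that its neighbour shares, and 4 of 1 replicate, all 4 at Sidpn. The stronger upstream peak of Hey in turn counts in replicates 1 and 3 through these same shared entries. The peaks of these genes were mostly weak: 9 of the 11 ranked past 2582, the middle of the IDR list. Among IDR peaks past that rank, 2 of the 9 (22.2%) were top entries in all 3 replicates, against 35.9% of all such peaks. The IDR list was itself made from these replicates, so these shares describe the lists and are not an independent check.

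**Figure D2:**
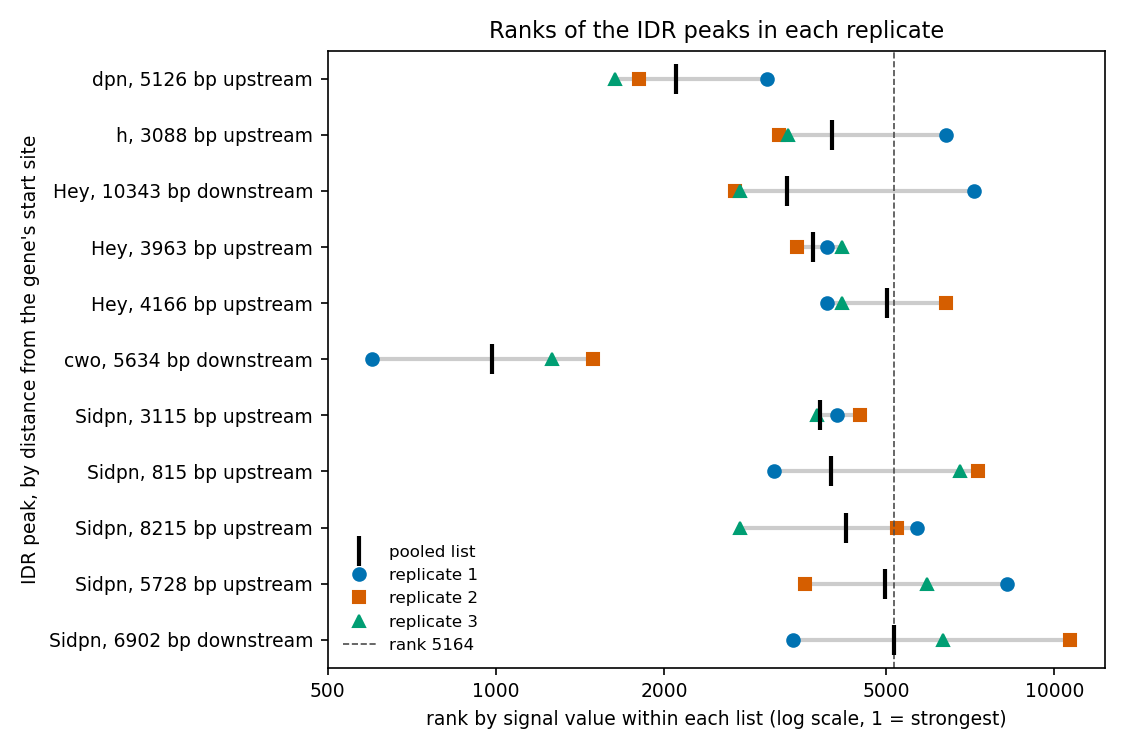
Rank of each of the 11 IDR peaks in the pooled list (black bar) and in the 3 replicates (coloured symbols), on a log axis where 1 is the strongest; the dashed line marks rank 5164 and the grey line joins the lowest and highest rank. The peak of cwo stayed between 601 and 1495 in all replicates, whereas the weakest peak of Sidpn ran from 3405 to 10661.

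At their own start sites, all 5 genes had a pooled entry within 1000 bp, as did 63.1% of all protein-coding genes. The median rank of these entries was 8817 for the 5 genes and 6295 for all genes with one. For 4 of the 5 genes the start-site entry was below the IDR threshold. The same held for 4905 of the 8796 protein-coding genes with such an entry, which is 35.2% of all protein-coding genes with or without one. The distance from a start site to the nearest IDR summit was 5126 bp for dpn, 3088 bp for h, 3963 bp for Hey, 5634 bp for cwo and 815 bp for Sidpn. Their median, 3963 bp, compared with 5451 bp for all genes. For Sidpn, 73.1% of all protein-coding genes had a more distant nearest peak, for cwo 49.3%. With 5 genes named for their family, these differences were given no test.

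**Figure D3:**
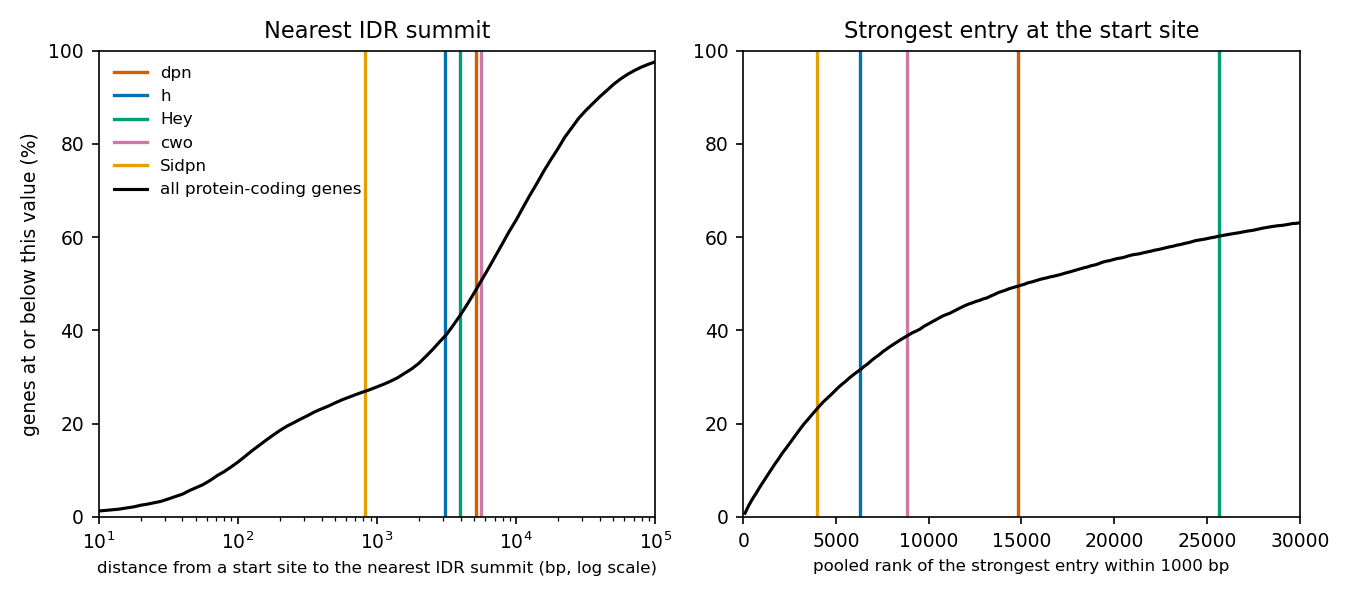
Left, share of protein-coding genes (%) whose start site lies within a given distance of an IDR summit (bp, log axis); right, share with an entry within 1000 bp at or above a given pooled rank. The black line is all 13945 protein-coding genes and the coloured verticals are the 5 genes, with Sidpn at 815 bp and the other 4 between 3088 and 5634 bp.

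The 5 loci also differed in how densely they were covered by entries of any rank. Pooled entries numbered 6 around dpn, 16 around h, 6 around Hey, 19 around cwo and 17 around Sidpn. The replicates gave a mean of 7.33 ± 0.577 for dpn, 15.3 ± 2.08 for h, 7.33 ± 0.577 for Hey, 16 ± 2.00 for cwo and 15.3 ± 1.53 for Sidpn (SD, n = 3 each). The counts of dpn and Hey thus did not overlap with those of the other 3 genes in any replicate. Scaled to the sequence searched, pooled entries were 25.7 and 26.3 per 100 kb for dpn and Hey, and 68.1, 58.5 and 73.7 per 100 kb for h, cwo and Sidpn. The median over all protein-coding genes was 31.4 per 100 kb. The strongest IDR peaks belonged to cwo, with 19 entries, and to dpn, with 6. Of the 53 pooled entries below the threshold at these genes, 10 were found in all 3 replicates (18.9%), against 22.1% of all such entries.

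By position, 7 of the 11 IDR peaks lay within 500 bp of a start site of some gene, called promoter here, 2 in introns and 2 in intergenic sequence. The shares of 63.6%, 18.2% and 18.2% compared with 55.5%, 30.6% and 11.5% of the whole IDR list. None of the 7 promoters was that of one of the 5 genes. By the start site nearest to the summit, they belonged to pnut, CG11191, mib2, CG15172 and the non-coding genes lncRNA:CR43700 and lncRNA:CR44184. The peak by mib2 also lay close to a start site of CG31800. Which gene a peak acts on cannot be read from its distance.

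**Figure D4:**
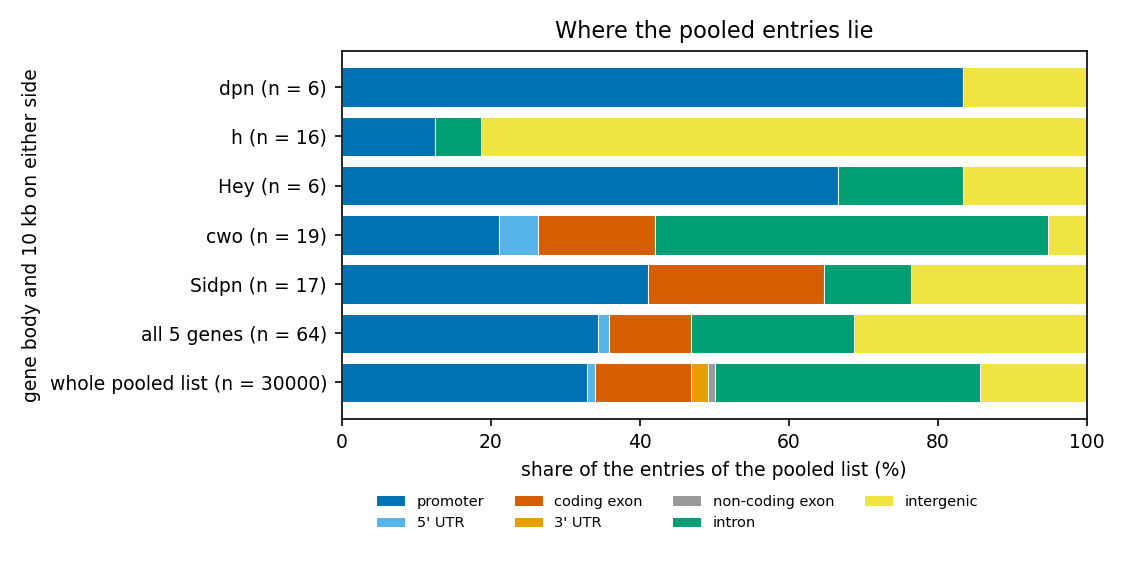
Share (%) of the pooled entries at each gene, at all 5 genes together and in the whole pooled list by position of the summit. Intergenic sequence held 81.2% of the 16 entries around h, introns 52.6% of the 19 around cwo, and promoters 83.3% of the 6 around dpn. The shares also depend on how much of each kind of sequence was searched around each gene.

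Genes of proteins that Hes factors work with were set beside the 5 genes. All 3 co-repressor genes had an IDR peak at a start site, against 27.9% of all protein-coding genes: gro, the gene of Groucho, at rank 135, CtBP, which encodes a second co-repressor of Hairy, at rank 1367, and Sirt1, the deacetylase gene long called Sir2, at rank 2490. In replicates 1, 2 and 3 the peak of gro ranked 158, 133 and 132, that of CtBP 1220, 1379 and 1287, and that of Sirt1 2729, 2133 and 2910. All of these stood above the strongest start-site entry of the 5 genes in each replicate. Of the 7 bHLH genes of the E(spl) complex, the Notch-driven branch of the same family, all 7 had an IDR peak within 10 kb, against 67.5% of all protein-coding genes, and 3 had one at a start site, against 27.9%. Their median distance to the nearest IDR summit was 1053 bp. These genes lie side by side and share peaks. The gene gro, at 26041736 to 26049911 on chromosome 3R, lies beside them. Its start-site peak is within 10 kb of the adjoining E(spl) gene and so counts for both lists. Of 6 circadian clock genes, chosen because cwo acts with them, 3 had a peak nearby and 2 at a start site, against the same 67.5% and 27.9%. These 2 were vri, which represses Clk, at rank 2383, and Pdp1, which activates it, at rank 2309.

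Sites known for Hes proteins were found near the summits of 2 of the 11 peaks, 18.2%, against 13.8% of all IDR peaks. The search took 50 bp on either side of each summit, on both strands. It covered the E-box CACGTG, the Hes site CACGCG, the N-box CACNAG and TATCGA. No match to one motif shared bases with a match to another. CACGTG and CACGCG were found at 0 of the 11 peaks, against 0.91% and 1.92% of all 5164 IDR peaks. CACNAG was found at 2 of the 11, against 11.4% of all, both at Sidpn: by lncRNA:CR44184 it began at the summit itself, and by lncRNA:CR43700 it began 22 bp away, as in the sequences above. TATCGA was found at 3 of the 11, against 10.5% of all, at the dpn peak inside pnut, by lncRNA:CR44184, and by mib2 with 2 copies. Within 200 bp of the summit, a window chosen after seeing the data, CACGTG was at 0 of the 11, against 5.07% of all, CACGCG at 1, against 9.59%, and CACNAG at 4, against 39.1%. Any of these Hes sites was at 5 of the 11 in that window, 45.5%, against 47.7% of all. TATCGA was at 6, against 26.6%, and 2 of the 6 were the overlapping peaks of Hey, which hold the same copy.

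The peaks of cwo, h and Hey held none of the 4 motifs within 50 bp, nor did the Sidpn peaks at ranks 3977 and 4973. The peak of cwo had a CACNAG 76 bp from its summit. With 11 peaks each one counts for 9.09% of the total, and several of these peaks lie at promoters of other genes, so the shares are descriptions of these stretches. The same windows held a median of 33.7% G and C, from 23.8% at h to 47.5%, and all IDR peaks had a median of 36.6%. A missing match says only that these letters were not in the window.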

How the data were processed

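The authors deposited narrowPeak lists without header lines. Per the deposited lists of files, peaks plus background were called against a control alignment, per replicate and for the pool of all 3, on dm6, and then entered IDR. Aligner, caller and versions are not given in the sources used here. The authors' signal value (column 7) served only to rank entries inside 1 list. Column 9 gives, in the deposited narrowPeak format, the −log10 of a q-value. The summit comes from the deposited offset in column 10, which is in bp. Replicate and pooled lists held 30000 entries each. The IDR list held the 5164 strongest pooled entries. Depth and counting error per entry are unknown, so precision rests on the 3 replicates. Lists on the older assembly were not used, since no position is converted between builds.

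Entries were assigned to genes of Ensembl release 115 with Python 3.11.15 and NumPy 2.4.6, and the counting rules were tested on simulated data. Start sites of transposable elements were left out. A summit within 500 bp of any start site counted as promoter, and otherwise by exon type, then intron, then intergenic. Entries of different lists were matched at summits within 150 bp, taking the strongest. With 1 group, no test was made and no p-value computed. The members and the lists were chosen with earlier results of these data known. Named genes are the 5 genes, those with the start site nearest to their IDR peaks, and partner genes with a peak at a start site, at most 4 a list. Alternatives changed the flank, the start-site window, the matching distance, the peak list, the annotation and the motif window. Each replicate was left out by keeping the IDR peaks matched among the top entries of both others. The IDR list itself was still made with the replicate left out. The main counts of genes and of IDR peaks required no such match, so they could only stay or fall under this rule.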

Additional observations from a re-analysis of the deposited data

How the results depend on the processing

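The number of the 5 genes with a peak nearby stayed at 4 or 5, except with a flank of 2 kb (2 genes, cwo and Sidpn) and with the IDR list down to rank 2582 (2 genes, dpn and cwo). The share of all protein-coding genes was 40.5% at 2 kb and 54.2% at 5 kb. Without each replicate in turn it was 4 to 5, and h lost its peak without replicate 2 or 3. The number with a peak at a start site, 1, was 0 with a window of 500 bp and 0 down to rank 2582. With the 10000 strongest pooled entries it was 3 (h, cwo and Sidpn). In the replicates' own top entries, a setting added after seeing the data, it was 2, 0 and 0. The number thus rests on the Sidpn peak at rank 3977. Without each replicate in turn it was 0, which was fixed beforehand, since that peak was a top entry of replicate 1 only. The 11 IDR peaks became 7 at 5 kb, 2 at 2 kb, 2 down to rank 2582, 23 with the 10000 strongest pooled entries, and 4 to 6 without each replicate in turn, with 4 when replicate 3 was left out. Peaks found in all replicates, 4, were 1 at 2 kb, 2 with matching within 75 bp and 11 with all replicate entries, and 4 to 6 when 1 replicate was not required. The E-box and N-box count of 2 was 1 within 25 bp. With the NCBI annotation, the numbers of genes with a peak nearby (5) and at a start site (1) and of IDR peaks (11) were as given. The settings differ in the sequence and entries taken, in the matching distance and in the replicates required. What underlies each change was not tested. The unknown depth limits every statement about weak entries. No paired analysis was possible because the series holds 1 group.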

Other observations

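Several entries near these genes fell just short of the IDR threshold or were matched to a top entry of 1 replicate alone. The genes beside them were named after their values were seen. Around Hey, an entry over the paired start sites of ACC and Nup44A ranked 5210 in the pooled list, shortly after the last IDR peak, and 3923, 12989 and 5096 in replicates 1, 2 and 3. Around dpn, an entry 9308 bp upstream by lncRNA:CR44276 ranked 3836 in replicate 1 and 14760 in replicate 3 and had no match in replicate 2. Around cwo, an entry by Rfx, which encodes a transcription factor, ranked 4491 and 5872 in replicates 2 and 3 and had no match in replicate 1. Another, by CG6325, ranked 5088 in replicate 1 and 14366 in replicate 3 with no match in replicate 2. Each of these pooled entries was matched to a top entry of at least 1 replicate and was absent from the IDR list.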
